A study of Mus musculus with 4 samples.

Results

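The forkhead, SOX and KLF genes encode 3 large families of transcription factors. They were taken as every named gene of the array whose symbol fits the family pattern, leaving out Foxa1, Foxa2, Foxa3, Foxm1, Sox2, Sox7, Sox9, Sox17 and Sox18. That gave 63 genes (35 forkhead, 12 SOX and 16 KLF) of the 17016 named genes, and 49 of them could be tested. RNA had been measured on 4 one-colour arrays, 2 of lineage-negative CD44+ cells and 2 of lineage-negative CD44- cells. Both cell groups were sorted, after digestion for 3 h, from glandular stomach tumours of K19-Wnt1/C2mE mice aged 30 weeks. In these mice the keratin 19 promoter drives Wnt1 together with the prostaglandin E2 enzymes Ptgs2 and Ptges, so both groups carry all 3 transgenes, and no wild-type or single-transgene cells are part of the comparison. Neither the number of mice behind each array nor the lineage markers are given in the sources used here, and a p-value here reflects the spread between the deposited samples, whose source may be technical.

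Forkhead factors bind DNA through a winged helix domain, and several of them fix the identity of gut mesenchyme, endothelium and epithelium. The FoxO branch carries signals of insulin and growth factors, since the kinase AKT moves these proteins out of the nucleus. SOX factors bend DNA with an HMG box, a fold they share with the TCF/LEF factors of the Wnt pathway. KLF factors read CACCC and related GC-rich boxes with 3 C-terminal zinc fingers. In gut epithelium Klf4 is known from differentiated cells that have left the cell cycle and Klf5 from proliferating cells.

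The first CD44+ array was the dimmest of the 4. Its 75th percentile of processed signal was 244 and that of the other CD44+ array 493, against 406 and 527 for the CD44- cells, and 52.6% of its probes were well above background, where the other arrays had 65.0% to 69.1%. Levels are log2 signals relative to each array's 75th percentile, differences are CD44+ minus CD44-, and errors are standard errors (SE) from the fit with 2 arrays per group. The sort marker Cd44 gave 6.31 and 6.54 on the CD44+ arrays, against 4.26 and 5.11 on the CD44- arrays, with its brightest probe. The median of the epithelial markers lay far above the 75th percentile in both groups. Over 8 genes it was 6.08 and 6.12 in CD44+ cells, against 5.06 and 4.33 in CD44- cells. These genes did not move together: 6 differences lay above 0, led by Cldn7 (1.84) and Epcam (1.66), and 2 below, Cldn4 (-2.19) and Cldn3 (-1.28). Cldn4 was dim, with -3.24 and -5.15 in CD44+ cells, against -2.47 and -1.54 in CD44- cells. The leukocyte markers had medians of -2.42 and -2.47 in CD44+ cells and of -2.33 and -1.92 in CD44- cells, but the 8 genes went both ways. Cd53, not well above background in CD44- cells, was at least 9.06-fold higher in CD44+ cells and passed limma's test (adjusted p = 0.0240). Cd53 was tested only through the CD44+ cells, and its p-value rests on CD44- values in the background (-6.08 and -5.32). The call was lost when dim probes were kept in and when the arrays were quantile-normalized. A filter asking for signal well above background on all 4 arrays took Cd53 out of the test. Vav1 (-3.16), Tyrobp (-1.74) and Laptm5 (-1.48) had an unadjusted p under 0.05 without passing.

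With limma and Benjamini-Hochberg adjustment, 0 of the 49 genes tested had an adjusted p under 0.05. Of all 21045 genes 0.399% did, 0.0238% higher and 0.375% lower in CD44+ cells. The smallest adjusted p was 0.189, that of Sox6. At an unadjusted p under 0.05 there were 3 members, Foxf2, Foxo6 and Sox6, all lower in CD44+ cells, which is 6.12% of the members, against 10.8% of all genes (2.86% higher and 7.90% lower). The groups did not overlap for 19 members (38.8%), against 39.6% of all genes. At least 2-fold apart without overlap were 7 members (14.3%), 2 higher and 5 lower in CD44+ cells, against 13.5% of all genes (3.80% higher and 9.66% lower). Over the 3 families these shares lay near those of the array. Well above background on all 4 arrays were 39 of the 49, beside 81.6% of all genes tested, and Foxd1 and Sox6 passed the filter through the CD44- arrays alone. The second CD44- array was at least 2-fold above the first for 6 members, beside 10.9% of all genes. Of the 49 differences 25 were under 0.5 on the log2 scale and 40 under 1, with a median SE of 0.48. A difference of that size could not be told from 0 with 2 arrays per group. The shares of all genes under these sizes were not counted, so these 2 counts are not set against the array.

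**Figure D1:**
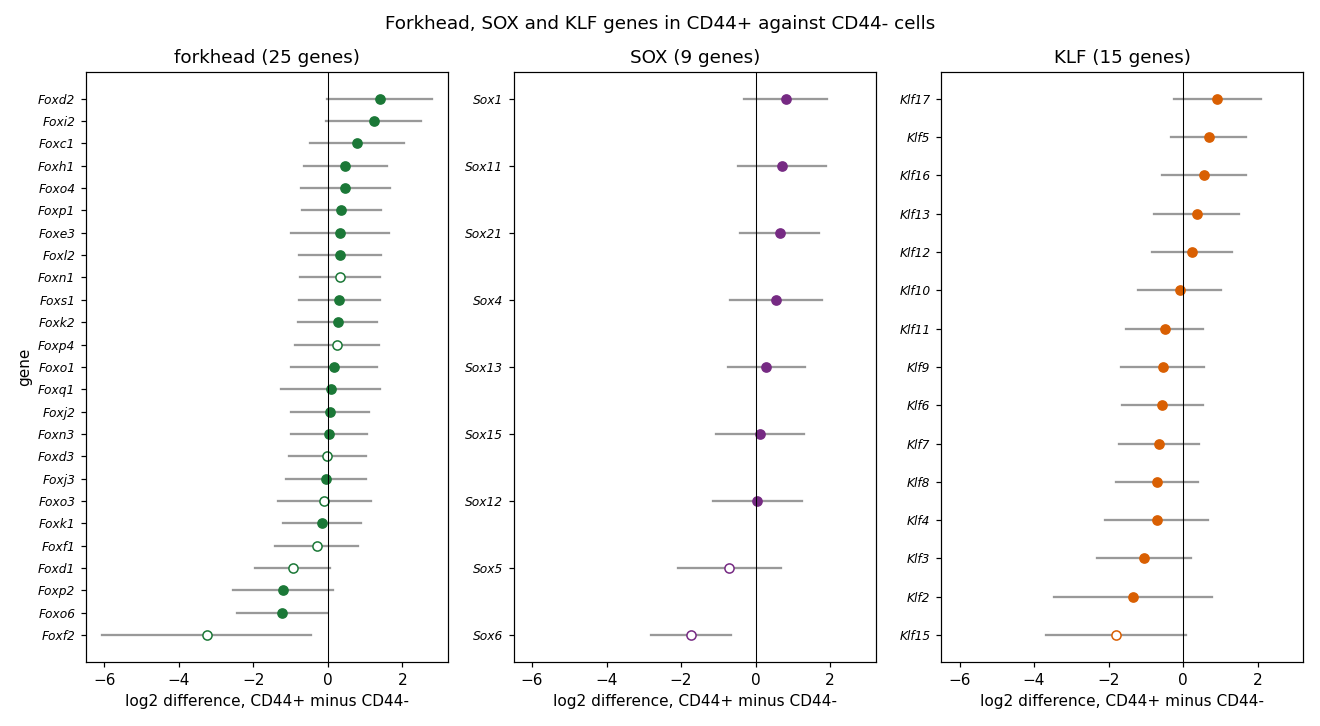
Log2 difference (CD44+ minus CD44-, horizontal axis) of each forkhead, SOX and KLF gene tested, with its 95% confidence interval from limma as a grey line. Filled points are genes whose probe was well above background on all 4 arrays, and open points are the other genes. Foxf2 (-3.25) and Sox6 (-1.72) have intervals that lie wholly below 0, the interval of Foxo6 ends just below 0 at -0.03, and the other 46 intervals include 0. The value of Sox6 rests on CD44+ signals in the background.

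The family medians lay on different sides of 0. The median log2 difference was 0.16 over 25 forkhead genes, 0.29 over 9 SOX genes and -0.55 over 15 KLF genes, beside 0.16 over all genes tested. Of the KLF genes 10 lay below 0 (66.7%), against 39.4% of all genes, while 9 forkhead genes (36.0%) and 2 SOX genes (22.2%) did. The forkhead median and share lay near those of all genes, and the SOX share rests on 9 genes. None of these single differences passed, and the lean of the KLF family depended on the probe chosen, as described below.

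The upstream sequence is shown for Foxf2, which had the largest difference of all members, and for Klf2 and Klf4, KLF genes whose 2 CD44- arrays differed most from each other. Each is RefSeq's window of 300 bases on GRCm38.p6, 250 before and 50 after the gene's start, written on the strand of the gene. Capitals mark the letters CACCC (the core of a KLF box), TAAACA (a forkhead core) or AACAAT (a SOX core), on either strand.
Foxf2, chr13:31625566-31625865, plus strand: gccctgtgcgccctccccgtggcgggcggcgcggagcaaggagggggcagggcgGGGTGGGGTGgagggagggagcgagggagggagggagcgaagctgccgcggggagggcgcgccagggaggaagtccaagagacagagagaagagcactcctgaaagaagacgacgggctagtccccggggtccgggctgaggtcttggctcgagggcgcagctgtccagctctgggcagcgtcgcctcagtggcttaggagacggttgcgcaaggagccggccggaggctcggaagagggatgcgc
Klf2, chr8:72318812-72319111, plus strand: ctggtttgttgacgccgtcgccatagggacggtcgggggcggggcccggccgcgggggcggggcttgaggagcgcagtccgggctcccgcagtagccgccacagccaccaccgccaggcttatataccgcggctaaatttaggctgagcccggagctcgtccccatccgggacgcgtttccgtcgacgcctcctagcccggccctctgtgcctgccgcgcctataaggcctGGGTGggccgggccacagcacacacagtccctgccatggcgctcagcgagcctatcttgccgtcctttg
Klf4, chr4:55532426-55532725, minus strand: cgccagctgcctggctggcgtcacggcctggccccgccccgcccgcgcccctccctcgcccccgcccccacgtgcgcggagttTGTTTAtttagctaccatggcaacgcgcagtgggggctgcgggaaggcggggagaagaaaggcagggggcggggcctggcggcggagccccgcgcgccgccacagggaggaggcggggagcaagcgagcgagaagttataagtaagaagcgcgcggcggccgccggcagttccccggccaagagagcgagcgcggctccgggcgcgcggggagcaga
The windows are rich in G and C, at 71.3% for Foxf2, 69.3% for Klf2 and 74.3% for Klf4. Foxf2 holds 2 adjoining runs of CACCC and Klf2 holds 1 close to its start, all on the opposite strand and so read as GGGTG. Klf4 holds 1 forkhead core, read as TGTTTA, and no CACCC. The related GC-rich boxes that KLF factors also read were not searched for. These letters are common. CACCC stood in 64.8% of 54 windows of 45 members and in 57.5% of all 32851 windows, a forkhead core in 14.8% and 13.4%, and a SOX core in 7.41% and 10.7%. A match is a run of letters and not a measured binding site.

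Among the forkhead genes of mesenchyme and mesoderm, Foxf2 stood apart. Foxf2, a regulator of gut mesenchyme that fibroblasts of the gut wall express, had -5.01 and -1.75 on the CD44+ arrays, against -1.72 and 1.45 in CD44- cells. One CD44- array, the second, was high, the first CD44+ array was low and not well above background, and the arrays between them lay within 0.03 of each other, so the groups only just failed to overlap, and they did overlap with each array scaled to its median. Its log2 difference was -3.25 ± 1.22 (limma adjusted p = 0.357). With the second CD44- array left out it was -1.67, and with the first CD44+ array left out it was -1.62.

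Several lists had the same order of arrays as Foxf2 in their median levels, among them fibroblast, endothelial, early response and enteroendocrine genes. The 10 fibroblast markers had median levels of -0.41 and 1.66 in CD44+ cells and of 2.53 and 3.57 in CD44- cells, and summed signals of 12.2 and 47.4, against 78.6 and 463, in units of each array's 75th percentile. None of the 10 passed limma's test, where 8 had an unadjusted p under 0.05, and for 9 the second CD44- array was at least 2-fold above the first. The 8 enteroendocrine markers had medians of -2.14 and -1.52 in CD44+ cells and of 4.34 and 4.97 in CD44- cells, all 8 lay below 0, and 6 passed limma's test as lower. The endothelial and early response values are given with Klf2 and Klf6. The part of these lists in the Foxf2 difference was not tested. In bulk samples fewer cells of a type and less RNA per cell cannot be told apart.

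None of the other mesodermal forkhead genes tested had a difference of this size, but Foxf1 and Foxd1 were dim. Foxf1, the close relative of Foxf2, had -4.20 and -4.73 in CD44+ cells, against -4.49 and -3.85 in CD44- cells (difference -0.30 ± 0.48, limma adjusted p = 0.861), and its levels overlapped. It was not well above background on the first CD44+ array, so a fall as large as that of Foxf2 could not have been seen. With normexp background correction its difference was 0.29. Foxc1, which acts in mesoderm and vessels, had 0.99 and 1.57 in CD44+ cells, against -0.09 and 1.11 in CD44- cells. That is a difference of 0.77 ± 0.55 with overlapping groups (limma adjusted p = 0.759). Foxc2, known from lymphatic endothelium, was well above background on the second CD44- array alone, at -1.98, and lay between -5.66 and -5.14 on the other 3 arrays, so it was not tested. Foxd1, known from stroma of the kidney, was well above background on both CD44- arrays (-4.79 and -4.72) and on neither CD44+ array (-5.71 and -5.70). Its difference of -0.95 ± 0.43 (limma adjusted p = 0.510) rests on CD44+ values in the background, and no fold is given because the lowest signal well above background on the CD44+ arrays averaged more than the CD44- level.

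The FoxO genes were measured with all 4 members. Foxo1, the main FoxO factor of insulin signalling, had 1.38 and 2.06 in CD44+ cells, against 1.18 and 1.93 in CD44- cells. The groups overlapped (0.16 ± 0.50, limma adjusted p = 0.929). Foxo3 was dim, with -4.18 and -3.55 in CD44+ cells, against -4.32 and -3.20 in CD44- cells, and the 95% interval of the difference ran from -1.35 to 1.14. Foxo4 differed by 0.46 ± 0.52. Foxo6, a FoxO factor best known from brain, had -1.28 and -0.63 in CD44+ cells, against -0.20 and 0.75 in CD44- cells. It was lower on both CD44+ arrays, by -1.23 ± 0.52 (2.35-fold, limma adjusted p = 0.449), and leaving out single arrays put it between -1.71 and -0.76.

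Genes around FoxO were taken from lists. Of 12 upstream regulators tested, none passed limma's test over all genes, 1 had an unadjusted p under 0.05, and the median difference was -0.08. The smallest p values belonged to the kinases Pdpk1 (-1.03 ± 0.43) and Sgk1 (-1.11 ± 0.50) and to the PI3-kinase subunit Pik3r1 (-1.09 ± 0.58), and these 3 were at least 2-fold apart without overlap. Of 16 genes known as FoxO targets 12 lay below 0, with a median of -0.52, and 1 passed. It was Pdk4, the kinase that shuts off pyruvate dehydrogenase. Pdk4 had -0.70 and -1.46 in CD44+ cells, against 2.18 and 1.94 in CD44- cells, so that it was far lower on both CD44+ arrays (8.86-fold, difference -3.15 ± 0.48, limma adjusted p = 0.0460). It lost the call without either CD44+ array, with quantile normalization and with no filter on dim probes, and its difference stayed between -3.53 and -2.75 in all 13 alternatives. Besides Pdk4, the targets Cat (-1.22) and Pik3ip1 (-1.64) had an unadjusted p under 0.05 without passing. Another 4 targets lay above 0, the furthest being Gadd45a (0.63). The cell cycle inhibitors Cdkn1b (-0.54) and Cdkn1a (-1.05), other known targets, did not pass, and Cdkn1b was not well above background on the first CD44+ array.

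The FoxP genes, which act mostly as repressors, gave 1 larger difference. Foxp1 had 2.69 and 2.14 in CD44+ cells, against 2.20 and 1.90 in CD44- cells, with overlapping groups (0.36 ± 0.46, limma adjusted p = 0.835). Foxp2 had -2.24 and -1.33 in CD44+ cells, against -1.22 and 0.06 in CD44- cells. The CD44+ arrays were lower, but the gap between the groups was smaller than that between the replicates of either group. The difference was -1.21 ± 0.59 (2.31-fold, limma adjusted p = 0.555), and -0.56 without the second CD44- array. Foxp4 differed by 0.25 ± 0.49. Foxp3, which defines regulatory T cells, was well above background on the first CD44+ array alone and was not tested.

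Foxq1, which in mice is needed for mucin Muc5ac in the stomach's surface cells, had 1.66 and 0.32 in CD44+ cells, against 1.28 and 0.56 in CD44- cells. Its groups overlapped (0.07 ± 0.58, limma adjusted p = 0.974). Foxh1, a partner of the Smad proteins, differed by 0.47 ± 0.48, and Foxk1, Foxk2, Foxj2, Foxj3, Foxn3 and Foxs1 by between -0.15 and 0.31. The dim Foxd3, Foxe3, Foxl2 and Foxn1 differed by between -0.02 and 0.33. Foxj1, the master regulator of motile cilia, was well above background on none of the 4 arrays. The same held for Foxb1, Foxd4, Foxe1, Foxi1 and Foxn2. Foxb2 was not tested, since only 1 array, a CD44- one, had it well above background.

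Foxd2 and Foxi2 were the only members at least 2-fold higher in CD44+ cells without overlap. Foxd2 had -1.85 and -3.35 in CD44+ cells, against -3.59 and -4.38 in CD44- cells (2.61-fold, 1.38 ± 0.61, limma adjusted p = 0.475). Foxi2 had -2.08 and -3.17, against -3.42 and -4.27 (2.33-fold, 1.22 ± 0.56, limma adjusted p = 0.504). In both genes the first CD44+ array was high and the second lay close to the first CD44- array. Without the first CD44+ array the differences were 0.63 and 0.68.

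That array was also the highest for many other dim members. Of the 19 members tested with a mean level under -2, it was the highest for 12 (63.2%), against 43.2% of the 7627 such genes on the array. Of the 8 members never well above background, it was the highest for 7, with a median level of -5.69. The second CD44+ array had -7.26 and the CD44- arrays had -6.51 and -7.40, so signals at background stood highest on this array once scaled. With normexp background correction and an offset of 50, no member was at least 2-fold higher without overlap. Foxd2 then differed by 0.79 and Foxi2 by 0.70. An added offset shrinks differences between dim signals by construction, so this setting cannot show the part of the dim array. The part of that array in the differences of Foxd2 and Foxi2 was not tested.

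**Figure D2:**
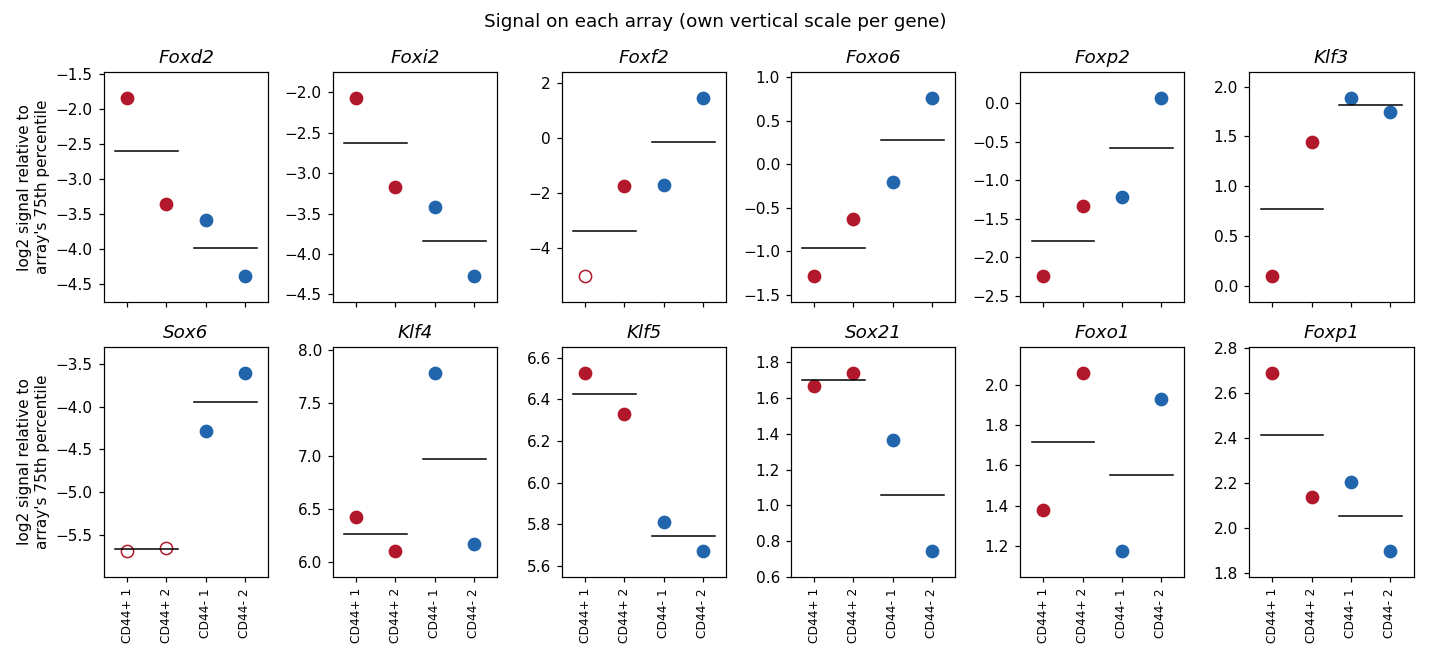
Log2 signal relative to each array's 75th percentile (vertical axis, own scale per gene) on the 2 CD44+ arrays (red) and the 2 CD44- arrays (blue), with the group means as lines. Open points were not well above background. The first 7 panels are the members at least 2-fold apart without overlap, among them Foxf2, whose second CD44+ (-1.75) and first CD44- (-1.72) arrays nearly meet, and the last 5 are members named whatever their difference.

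Of the 12 SOX genes 9 were tested. Sox6, a SOX D factor without an activation domain of its own, had -5.69 and -5.65 in CD44+ cells, against -4.28 and -3.61 in CD44- cells. It was well above background on both CD44- arrays, while none of its 4 probes was so on a CD44+ array, and it was tested only through the CD44- cells. Measured against the lowest signal well above background, Sox6 was at least 1.25-fold lower in CD44+ cells with the scaling used here. The fitted difference was -1.72 ± 0.47 (limma adjusted p = 0.189), and the second tested probe gave -2.69. Both rest on CD44+ values in the background. Over the 12 alternatives in which Sox6 was tested, the fitted difference lay between -2.21 and -0.14, the latter less than 1.25-fold. Its partner Sox5 had -5.65 and -4.21 in CD44+ cells, against -4.63 and -3.82 in CD44- cells, with overlapping groups (-0.71 ± 0.60). Sox13, the third SOX D gene, differed by 0.29 ± 0.45.

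The SOX C genes Sox4, Sox11 and Sox12, known from progenitor cells, all lay above 0 without passing. Sox4 had 1.65 and 0.57 in CD44+ cells, against 0.21 and 0.91 in CD44- cells, and the groups overlapped (0.55 ± 0.54, limma adjusted p = 0.805). Sox11 had -2.75 and -3.84 in CD44+ cells, against -4.07 and -3.95 in CD44- cells (0.71 ± 0.51, and 0.17 without the first CD44+ array). Sox12 differed by 0.04 ± 0.52. Sox21, a SOX B repressor, had 1.67 and 1.74 in CD44+ cells, against 1.37 and 0.75 in CD44- cells. Both CD44+ arrays were higher and close together (1.57-fold, 0.65 ± 0.46, limma adjusted p = 0.762), and the difference kept its sign in all 13 alternatives. Sox1 (0.81 ± 0.48) was another dim gene with its highest signal on the first CD44+ array, and Sox15 differed by 0.13 ± 0.51. Sox3 and Sox8 were well above background on 2 and 1 arrays and were not tested, and the testis gene Sox30 was above background on none.

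Of the 16 KLF genes 15 were tested, and 14 of these were well above background on all 4 arrays. Klf4 had 6.42 and 6.10 in CD44+ cells, against 7.78 and 6.16 in CD44- cells. The first CD44- array was high and the other 3 arrays lay close together. Its difference was -0.71 ± 0.60 (limma adjusted p = 0.783), and 0.10 without that array. Klf4 and Klf5 are also made by squamous epithelium, whose 8 markers all lay below 0. Their median levels were 0.13 and -2.07 in CD44+ cells, against 4.59 and 5.66 in CD44- cells, 3 of them passed limma's test as lower, and their part in the values of both genes was not tested. Klf5 had 6.53 and 6.33 in CD44+ cells, against 5.81 and 5.67 in CD44- cells. Both CD44+ arrays were higher, and each pair of replicates lay within 0.20 or less. The difference of 0.68 ± 0.44 (1.61-fold, limma adjusted p = 0.723) stayed between 0.45 and 0.79 over all 13 alternatives. All 7 proliferation markers tested also lay above 0 (median 2.03), all with an unadjusted p under 0.05 and 0 called by limma, and their part in the Klf5 difference was not tested.

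Klf6, Klf7, Klf9 and Klf10 lay below 0 without passing. Klf6, induced by tissue injury, had 5.28 and 5.58 in CD44+ cells, against 5.66 and 6.31 in CD44- cells (-0.56 ± 0.47, limma adjusted p = 0.784), and its second probe gave -0.67. Klf10, induced by TGF-beta, had 1.70 and 1.77 in CD44+ cells, against 1.41 and 2.25 in CD44- cells, with overlapping groups (-0.09 ± 0.48). Klf9, a target of glucocorticoids, had -0.05 and -0.81 in CD44+ cells, against -0.04 and 0.28 in CD44- cells (-0.55 ± 0.48), and its second probe gave -0.55 as well. Klf7 lay at -0.64 ± 0.46. Beside them, all 12 early response transcription factors tested lay below 0, with a median of -0.89. None of these 12 passed limma's test, where 4 had an unadjusted p under 0.05, and for 9 the second CD44- array was at least 2-fold above the first. Their part in the KLF values was not tested. Their median levels were 1.98 and 2.47 in CD44+ cells and 2.53 and 4.21 in CD44- cells. The smallest p values were those of Fosl1 (-2.19 ± 0.54), Egr2 (-2.31 ± 0.72) and Atf3 (-1.90 ± 0.72).

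Klf2, a flow-responsive factor of endothelium that also keeps T cells quiescent, had 1.81 and 2.59 in CD44+ cells, against 1.98 and 5.12 in CD44- cells. The second CD44- array was high, and the first lay between the CD44+ arrays. The difference was -1.35 ± 0.92 (limma adjusted p = 0.747), and without the second CD44- array it was 0.22, on the other side of 0. A second Klf2 probe, also well above background on all 4 arrays, gave 2.11 and 0.94 in CD44+ cells, against 1.31 and 0.81 in CD44- cells, with no high second CD44- array. Of the 10 endothelial markers 8 were tested, and their median levels were -3.01 and -1.96 in CD44+ cells and -0.08 and 4.05 in CD44- cells. None of the 8 passed limma's test, where 7 had an unadjusted p under 0.05, all below 0, and Tek went the other way (0.30). Their summed signal was 0.990 and 2.30 in units of each array's 75th percentile, against 8.09 and 152, and for all 8 the second CD44- array was at least 2-fold above the first. Pecam1 and Tie1 were well above background on the second CD44- array alone. The part of these markers in the signal of the brighter Klf2 probe was not tested.

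Klf15, which controls amino acid and glucose metabolism in liver and muscle, had -4.10 and -1.85 in CD44+ cells, against -1.98 and -0.37 in CD44- cells, a difference of -1.80 ± 0.82 (limma adjusted p = 0.501). Its groups overlapped and its second probe gave 0.11. Klf3, a repressor that recruits CtBP, had 0.10 and 1.44 in CD44+ cells, against 1.88 and 1.74 in CD44- cells. The first CD44+ array was low and the other 3 arrays lay closer together. The difference was -1.04 ± 0.55 (2.06-fold, limma adjusted p = 0.613), -0.37 without that array and 0.20 with the second probe. Klf8 and Klf12, its relatives, differed by -0.69 ± 0.48 and 0.23 ± 0.46. Klf11, Klf13, Klf16 and Klf17 ranged from -0.50 to 0.91, and the erythroid factor Klf1 was well above background on no array.

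**Figure D3:**
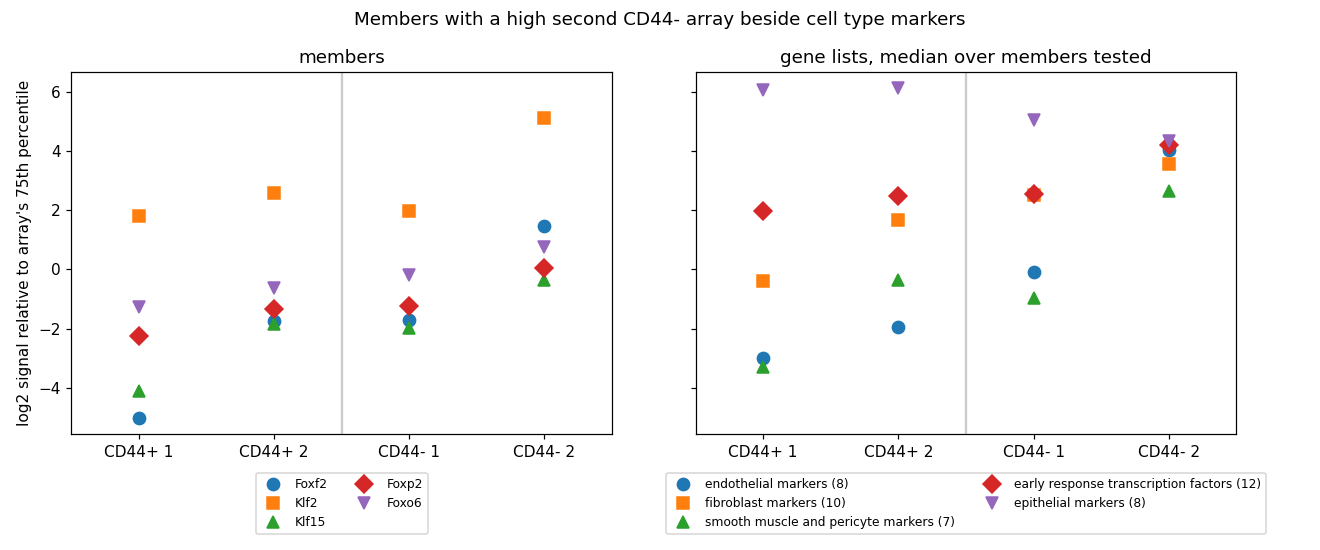
Log2 signal relative to each array's 75th percentile (vertical axis) on the 4 arrays for Foxf2, Klf2, Klf15, Foxp2 and Foxo6 (left) and the median over the tested genes of 5 lists (right, number of genes in brackets). The 5 members were picked for being highest on the second CD44- array, as 16 of the 49 members tested were (32.7%, against 25.3% of all genes). Klf2 reaches 5.12 there, but the second tested probes of Klf2 (0.81) and Klf15 (-4.10), not shown, were not highest on it. The endothelial (4.05), fibroblast, smooth muscle and early response medians are also highest on that array, while the epithelial median is lowest there at 4.33.

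Different probes of a gene often pointed to different sides. Of 13 members with at least 2 tested probes 8 had probes of opposite sign, namely Foxk1, Foxn3, Foxp4, Klf2, Klf3, Klf8, Klf11 and Klf15. The 5 KLF genes among them all lay below 0 with the brightest probe. Counted by probe, 12 of 22 KLF probes lay below 0, with a median of -0.30, against 39.7% of the 26508 probes tested on the array. With the tested probes of each gene averaged, 9 of 15 KLF genes lay below 0 and their median was -0.20. Klf6 and Klf9 had 2 probes each that both lay below 0, and Sox6, Foxo1 and Foxk2 had probes on 1 side only.

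**Figure D4:**
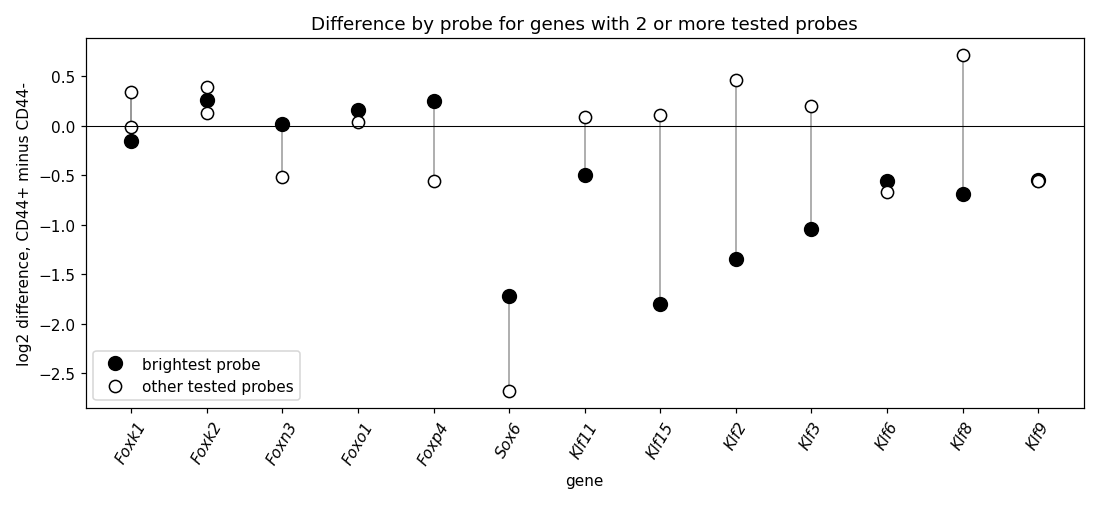
Log2 difference (CD44+ minus CD44-, vertical axis) of each tested probe for the 13 members with at least 2 such probes, with the brightest probe filled and the others open. Klf2, Klf3, Klf8 and Klf15 have their brightest probe below 0 and another above it, while both probes of Klf6, of Klf9 and of Sox6 lie below 0.

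Related factors outside the 63 genes gave no call either. Of 6 SP factors, which share the zinc fingers of the KLF genes, none passed limma's test. The Wnt target Sp5 was 1.90 ± 0.57 and Sp4 -2.44 ± 0.75, the 2 that had an unadjusted p under 0.05, and Sp6 was 0.56 ± 0.52. Of 9 TCF/LEF and other HMG-box factors 7 lay above 0, with a median of 0.37, and none passed. Tcf7 (1.56 ± 0.48) alone had an unadjusted p under 0.05, followed by Tcf7l1 (-0.89 ± 0.45) and Tox (0.79 ± 0.44). Of 12 co-repressors of KLF and forkhead factors none passed or reached an unadjusted p under 0.05. The smallest p values were those of Hdac3 (0.91 ± 0.44), Tle4 (-0.97 ± 0.58) and Tle2 (-0.79 ± 0.55). Of the 9 forkhead and SOX genes left out of the members none passed, and 2 had an unadjusted p under 0.05. The smallest p values were those of the endothelial factor Sox18 (-5.79 ± 1.31), the mitotic factor Foxm1 (1.74 ± 0.44) and Sox2 (0.88 ± 0.46). Sox18 was not well above background on the first CD44+ array, and its CD44- arrays were far apart, at -0.91 and 3.47.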

How the data were processed

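RNA of sorted cells was hybridised to 4 one-colour arrays, 2 per group. An input of 25 ng total RNA was amplified, per the labels' protocols, which can distort ratios between transcripts, and 0.2 ug of amplified RNA was labelled. Groups and replicate numbers came from the titles. For each array the authors deposited 1 scanner table. Its processed signal is, per the file headers, a background-subtracted intensity not scaled between arrays, and median spot and background signals are raw intensities. The other columns used are 0 or 1 flags that the deposited files give for outliers, saturation and signal well above background. The headers name Feature Extraction 10.1.1.1 and the submitters' processing notes version 9.5. The authors' value table is a linear ratio of each probe to its median over the arrays: over 10728 bright probes its log2 differences matched the scanner values with an SD of at most 0.00161. Its column medians are 0.853 and 0.989 for CD44+ and 0.928 and 0.739 for CD44-. How its array factors were chosen is unknown.

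Control and outlier spots were dropped and spots of a probe averaged, giving 41174 probes, of which 24375 matched a RefSeq symbol (GRCm38.p6) by accession. Array coordinates follow another build and are not given. Of the 71 symbols fitting the rule, 8 matched no probe and were not analysed here: Foxi3, Foxl1, Foxn4, Foxr1, Foxr2, Klf14, Sox10 and Sox14. Probes were tested where 1 group or more had both its arrays well above background, and the brightest tested probe stood for its gene. Of the 49 members tested, 39 were well above background on all 4 arrays. Limma 3.58.1 (lmFit and eBayes, R 4.3.3) compared the groups over 21045 genes with Benjamini-Hochberg adjustment, no covariates and 2 residual degrees of freedom (prior degrees of freedom 6.01). The fit was also run on simulated data. The differences planted there were larger than those of nearly all members, so that run does not show what the fit can detect at the sizes reported here. Members and lists were chosen with earlier results of these data known. Values on each array are given for members at least 2-fold apart without overlap and for a fixed set, and for other lists the genes that passed or the 3 with the smallest p. Some further genes of the other lists are also named. Precision is limited by there being 4 arrays. All 4 arrays shared 1 slide and 1 scan, so neither could be fitted as a batch. Single values of some genes are not reported here.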

Additional observations from a re-analysis of the deposited data

How the results depend on the processing

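Counts changed with the processing. Against 0 members called, normexp background correction called 1 lower (Foxf2, adjusted p = 0.0189), the other scalings, filters, probe choices and the variance trend called 0, and the fits with 1 array left out called 0 to 4 lower and 0 higher. The 4 came without CD44- replicate 1 (Foxf2, Klf2, Klf15 and Sox6), where the prior degrees of freedom were 87.8, beside 6.01 with all arrays, and 7.56% of all genes were called. Members at least 2-fold higher without overlap, 2 as reported, numbered 0 with normexp and 1 to 8 with 1 array left out. Those lower, 5 as reported, numbered 2 with median scaling, with normexp and in the authors' value table, 3 when all 4 arrays had to be well above background, and 2 to 8 with 1 array left out. A group of 1 array overlaps less often by construction. Klf2 ranged from -2.92 without CD44- replicate 1 to 0.22, a reversal, without CD44- replicate 2. Over the 7 other lists of factors and targets, 0 were called higher and 1 lower. Normexp gave 1 higher and 5 lower, median scaling and the authors' values gave 3 lower each, quantile normalization and no filter 0 lower, and 1 array left out 0 to 1 higher and 0 to 8 lower. The cause of these changes was not tested. Of the 49 members 24 kept their sign in all alternatives in which they were tested. Over all genes, 84 calls as reported became 748 with median scaling, 753 in the authors' table, 540 with normexp, 6 with quantile normalization, 24 with no filter, 130 with a variance trend, 1829 with the replicate block and 34, 2, 1590 and 464 with CD44+ 1, CD44+ 2, CD44- 1 and CD44- 2 left out. The 84 were 5 higher and 79 lower, and those with median scaling 121 and 627. Median scaling put the median difference of all genes at 0.26, against 0.16, and 9 of 15 KLF genes below 0.

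Replicate numbers do not pair these samples by any label, and with 2 pairs the correlation of same-numbered deviations (0.35) cannot show it. With the replicate block 0 members were called higher and 3 lower (Foxf2, Klf15 and Sox6), and in the other lists 3 higher and 8 lower. In that fit 8.69% of all genes were called, and the prior degrees of freedom were infinite, beside 6.01 without the block. The slide and scan block could not be fitted, since all arrays share 1 of each.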

Other observations

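Replicates of a group differed by at least 2-fold for part of the members. The second CD44- array lay at least 2-fold above the first for 6 of 49 members (12.2%, against 10.9% of all genes), namely Foxf2, Klf2, Klf15, Foxp2, Foxc1 and Foxo3, and at least 2-fold below it for Klf4. The second CD44+ array lay at least 2-fold below the first for 9 members (18.4%, against 10.3% of all genes) and at least 2-fold above it for 4 (8.16%, against 8.43%).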
